A study of Drosophila melanogaster with 3 samples.

Results

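The genes described here are 36 members of the segmentation cascade of the early Drosophila embryo, taken from a list of names and grouped by their place in the cascade: 3 maternal genes, 11 gap genes, 9 pair-rule genes and 13 segment polarity genes. The list was chosen with earlier results of these data known. These 36 genes are set against all 13945 protein-coding genes on the 6 chromosome arms. The question was where az2, a zinc finger protein, sat on chromatin around these genes. Embryos of a transgenic line that carries az2 fused at its C terminus to a fluorescent tag (GFP) were collected at 0 to 16 hours, males and females together, and 3 biological replicates went through chromatin immunoprecipitation with an anti-GFP antibody and sequencing (ChIP-seq). All 3 belong to 1 group, so no genotypes, stages or treatments could be compared, and control samples were not analysed here. Whole embryos were used, so each peak averages over every cell type and over all 16 hours, while segmentation genes are active in stripes or gradients of cells and many of them early.

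In the fly embryo, maternal proteins laid down as gradients switch on gap genes in broad bands, the gap proteins place the striped pair-rule genes, and the pair-rule proteins place segment polarity genes, which hold each segment's boundary through the Wingless and Hedgehog signals. Most genes of the upper tiers encode transcription factors that are read out by enhancers lying several kilobases from the gene. Most genes of the last tier encode signals, receptors and their transducers, many of which are used in nearly every tissue.

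The authors' list of 5786 peaks that passed the irreproducible discovery rate (IDR, which scores whether peaks keep their ranks from replicate to replicate) was used, on the genome build dm6. Each peak has a summit, which is a single base, and a signal, taken here as the score given by the peak caller. The signals of the IDR peaks ran from 133 to 4202 with a median of 233. For each summit the signal of the peak holding it was read in each replicate list and divided by the median of the IDR peaks in that list, because the scale differed between lists (medians of 57.8, 97.0 and 86.6 in replicates 1, 2 and 3). This relative signal is 1 for a middling IDR peak. The lists hold no read counts, so depth is unknown, and the replicates' relative values are the only measure of error; over the 5683 IDR summits found in all 3 lists their SD was 0.159 times their mean at the median, and 0.170 times at the summits near segmentation genes.

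Few segmentation genes had an IDR summit at the promoter. A summit lay within 500 bp of an annotated transcription start site (TSS) in 4 of 36 genes (11.1%, exact binomial 95% interval 3.11 to 26.1%), against 22.6% of all protein-coding genes. The interval includes the share of all protein-coding genes. That share was not matched for gene length. It was 15.6% for genes up to 2000 bp long and 27.7 to 30.3% in the classes of longer genes. Only 5 of the 36 segmentation genes were up to 2000 bp long. The 4 genes were bcd and nos among the maternal genes, cnc among the gap genes and nkd among the segment polarity genes; none of the 9 pair-rule genes had one. The count was 2 with a window of 250 bp, which left bcd and nkd, against 17.6% of all protein-coding genes. At nos the summit was nearer to the TSS of another gene. No test of the list was run.

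The DNA under 3 of these promoter summits, and under the highest peak near any segmentation gene, is shown so that the base composition and short words around each summit can be read. Each sequence covers 100 bp to either side of the summit (base 101) on the plus strand of dm6 as held by RefSeq. Capitals mark matches, on either strand, to 6 short words linked to known factors: CAGGTAG (Zelda), GGATTA (Bicoid), GAGAG (GAGA factor), TATCGATA (the DRE element), CGATA (BEAF, which lies within the DRE word) and GGTCACAC (the core of the promoter element Motif 1).
bcd promoter, chr3R:6759579-6759779: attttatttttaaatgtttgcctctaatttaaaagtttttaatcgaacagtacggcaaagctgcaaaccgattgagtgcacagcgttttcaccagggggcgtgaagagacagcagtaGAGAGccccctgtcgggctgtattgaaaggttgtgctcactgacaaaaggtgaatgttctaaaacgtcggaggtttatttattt
cnc promoter, chr3R:23189988-23190188: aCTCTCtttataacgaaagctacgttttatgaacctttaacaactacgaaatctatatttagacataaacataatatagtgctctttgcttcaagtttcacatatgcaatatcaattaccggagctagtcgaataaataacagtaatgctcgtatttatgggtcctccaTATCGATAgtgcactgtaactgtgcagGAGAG
nkd promoter, chr3L:19045504-19045704: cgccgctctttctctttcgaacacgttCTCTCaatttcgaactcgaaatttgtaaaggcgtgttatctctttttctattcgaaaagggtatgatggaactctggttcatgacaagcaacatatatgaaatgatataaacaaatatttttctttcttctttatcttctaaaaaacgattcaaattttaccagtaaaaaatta
slp1 to slp2 interval, chr2L:3832420-3832620: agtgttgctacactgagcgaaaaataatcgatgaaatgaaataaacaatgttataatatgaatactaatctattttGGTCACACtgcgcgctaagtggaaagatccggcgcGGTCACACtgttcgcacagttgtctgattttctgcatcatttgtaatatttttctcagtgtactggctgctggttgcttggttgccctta

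The bcd window held 1 GAGAG word and the nkd window 1. The cnc window held 2 GAGAG words and 1 DRE word, with the CGATA word inside it read on both strands. The slp window held 2 GGTCACAC words, which lay on both sides of its centre, and none of the other words. The GC content of these windows was 41.3% at bcd, 34.8% at cnc, 31.3% at nkd and 39.8% at slp, against a mean of 34.6% over all IDR summits. A match is a string of letters and not evidence of binding by the named factor.

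The maternal gene bcd encodes the homeodomain protein whose gradient sets up the head and thorax. Its promoter peak (chr3R:6759575-6759800) had a pooled signal of 518 and rank 791 among the 5786 IDR peaks. The summit lay in intergenic DNA 213 bp upstream of the only annotated TSS. The relative signal was 1.57, 2.28 and 2.46 in replicates 1, 2 and 3 (mean 2.10 ± 0.468 SD, n = 3). Replicate 1 was the lowest, yet all 3 were above the middling IDR peak. A weaker summit 1369 bp upstream of the TSS had a signal of 246, and 2 more beyond it were nearer to Ama, a gene of an immunoglobulin-domain protein in the same complex.

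The gene nos, whose product is the posterior determinant that represses translation of hb messenger RNA, is listed in the annotation as nanos. The summit near its start (chr3R:19156722-19157151) lay 301 bp upstream of the nos TSS and 80 bp downstream of the TSS of the neighbouring gene CG11779, in the 5' untranslated region of that gene. The pooled signal was 224, and the relative signal was 1.00, 0.886 and 0.953 in the 3 replicates (mean 0.947 ± 0.0583 SD, n = 3). This was a peak of average height that repeated closely, and which of the neighbours it belongs to cannot be told apart by position. None of the 7 summits within 10 kb of nos was nearest to the nos TSS; the highest, with a signal of 698, lay 69 bp upstream of Nsun5, an RNA methyltransferase gene, and CG42359. The other 5 were nearest to Ppcs (260 and 163), CG5835 (150) and sqz (203 and 283).

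The homeodomain gene cad, whose product forms a gradient from the posterior end, had no promoter summit. A summit in its intron, 10061 bp from the nearest cad TSS, had a signal of 154, close to the lower end of the IDR list, and a relative signal of 0.904, 0.431 and 0.632 (mean 0.656 ± 0.237 SD, n = 3). Replicate 2 was the lowest there, and all 3 values were below 1. A summit 8554 bp upstream of cad, with a signal of 207, lay in an intron of dia, a formin gene. The highest summit within 10 kb, with a signal of 499, lay 295 bp upstream of Pomp, a proteasome maturation gene. The 3 maternal genes thus had 14 distinct summits within 10 kb, of which 2, both at bcd, were nearest to a TSS of the gene itself.

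The transcription factor genes hb, Kr, kni and gt of the trunk and tll and hkb of the terminal regions had no IDR summit within 10 kb of the gene. Their nearest summits lay 14181 bp from hb, 59243 bp from Kr, 15320 bp from kni, 30459 bp from gt, 11243 bp from tll and 10807 bp from hkb. Only knrl, the neighbour and relative of kni, had a summit in its span, in an intron 19791 bp from its TSS, with a signal of 190 and a relative signal of 0.902, 0.706 and 0.859 (mean 0.822 ± 0.103 SD, n = 3). A summit within 10 kb was thus found at 1 of 5 trunk gap genes (exact binomial 95% interval 0.505 to 71.6%) and at 0 of 2 terminal gap genes (0 to 84.2%), against 67.8% of all protein-coding genes. These intervals are wide, and with a flank of 20 kb hb, kni, tll and hkb counted too, which made 5 of the 7 genes, against 82% of all protein-coding genes.

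The 4 head gap genes all had summits within 10 kb (exact binomial 95% interval 39.8 to 100%), against 67.8% of all protein-coding genes. The interval includes that share. The basic leucine zipper gene cnc, which specifies the mandibular segment and also serves in the response to oxidative stress, has 10 annotated TSSs and a span of 41132 bp. Its promoter peak (chr3R:23190014-23190170) lay 331 bp downstream of an internal TSS, in an intron, and 36623 bp from the TSS that lies farthest upstream. The pooled signal was 358, and the relative signal was 1.34, 1.27 and 1.74 in the 3 replicates (mean 1.45 ± 0.253 SD, n = 3). All 3 values were above 1. A second intronic summit had a signal of 165, and a higher one of 725 lay 9944 bp beyond the gene, in an intron of the potassium channel gene Irk1.

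The homeodomain gene oc had a summit 6062 bp upstream of its TSS with a signal of 344. There the relative signal was 1.32, 1.53 and 1.33 (mean 1.39 ± 0.122 SD, n = 3). A second summit, with a signal of 267, lay 2755 bp beyond the other end of the gene. The homeodomain gene ems had summits 8809 bp upstream and 5999 bp downstream of its TSS, with signals of 187 and 184. For both genes these summits were nearer to the gene's own TSS than to any other. The Sp-family gene btd had 5 summits 6270 to 9607 bp upstream, and none was nearest to btd: 3 lay nearest to nej, the gene of the histone acetyltransferase CBP, and 2 nearest to the noncoding gene lncRNA:CR42657. Their signals were 145, 249 and 183 at nej and 620 and 166 at lncRNA:CR42657.

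**Figure D1:**
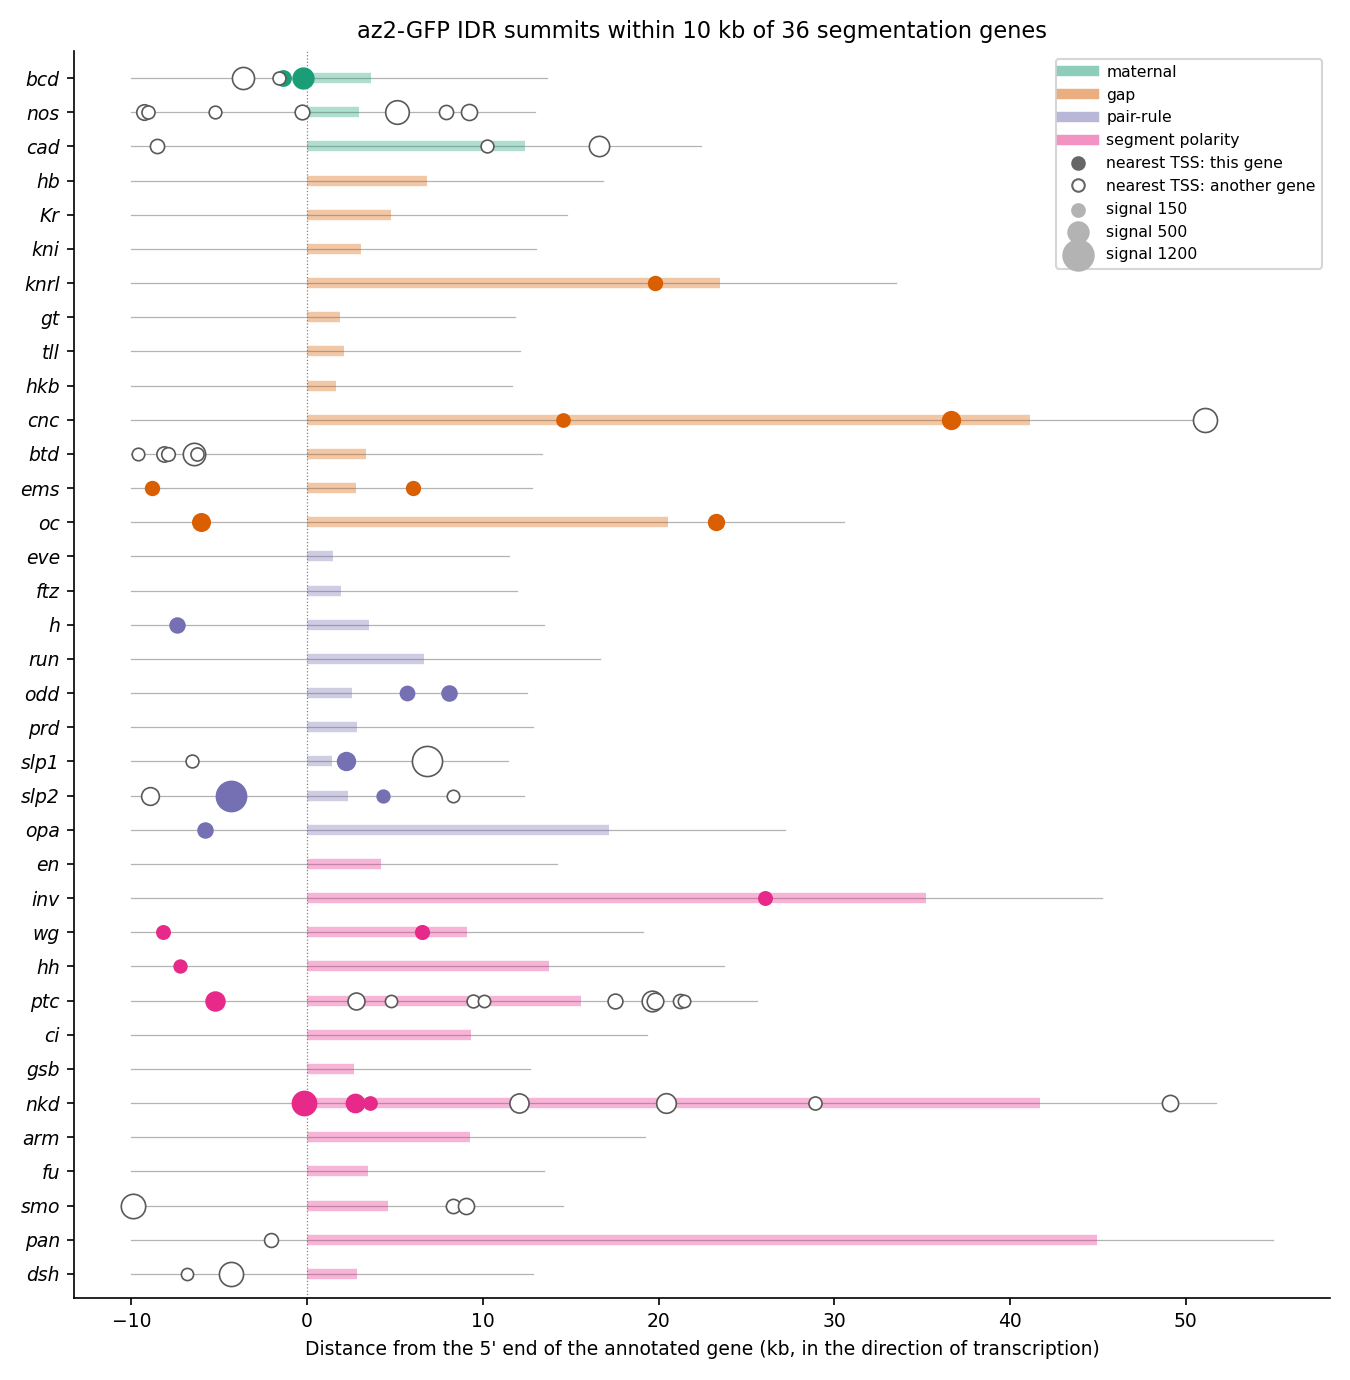
IDR summits within 10 kb of each of the 36 segmentation genes, with distance in kb from the 5' end of the gene along the x axis and genes in rows; thick bars are gene spans, and circles are summits, larger with higher pooled signal and filled where the nearest TSS is that of the gene in the row. The rows of hb, Kr, kni, gt, tll, hkb, eve, ftz, run, prd, en, ci, gsb, arm and fu are empty, and all circles at nos, cad, btd, smo, pan and dsh are open.

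The highest peak near any segmentation gene lay between the pair-rule genes slp1 and slp2, which encode related forkhead proteins and are transcribed in the same direction. This peak (chr2L:3832333-3832683) had a pooled signal of 1183 and rank 124 of 5786. Its summit lay in intergenic DNA 4320 bp upstream of the slp2 TSS and 5421 bp past the end of slp1. The relative signal was 5.11, 5.23 and 4.46 in the 3 replicates (mean 4.93 ± 0.412 SD, n = 3), and the peak ranked 99, 131 and 150 in their lists. The lowest of these values was above the highest value at any promoter summit of the 36 genes. A second summit in the same interval, 774 bp past the end of slp1, had a signal of 362 and a relative signal of 1.85, 1.37 and 1.499 (mean 1.57 ± 0.249 SD, n = 3). Both count for each gene of the pair, and their position alone does not assign them. Lower summits flanked the pair: 1 with a signal of 156 lay 6555 bp upstream of slp1, nearest to lncRNA:CR44077, and 2 lay past slp2, with a signal of 149 nearest to slp2 and a signal of 142 nearest to lncRNA:CR44983.

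Of the other pair-rule genes, 3 had summits within 10 kb and all of these were nearest to the gene itself. The bHLH repressor gene h (hry in the annotation) had a summit 7416 bp upstream with a signal of 230. The zinc finger gene odd had summits 5693 and 8085 bp downstream of its TSS with signals of 203 and 236. The Zic-family gene opa had a summit 5837 bp upstream with a signal of 232. These 4 signals are at or near the median of the IDR list. The 4 genes eve, ftz, run and prd, which encode homeodomain, Runt and Pax proteins, had none. Their nearest summits lay 19389 bp from eve, 15550 bp from ftz, 33902 bp from run and 17190 bp from prd. The summit nearest to eve was itself high, with a signal of 1757 and rank 42, but its nearest TSS was that of Pal1.

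Among the 9 pair-rule genes, no summit lay in a gene span or at a promoter, and 5 genes had one within 10 kb. Of their 9 distinct summits 7 were nearest to a TSS of a pair-rule gene.

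The segment polarity gene nkd had 3 summits nearest to its own TSS, the most of the 36 genes. It encodes an inhibitor of Wingless signalling that binds Dishevelled and is itself switched on by the signal. The promoter peak (chr3L:19045476-19045740) lay with its summit in intergenic DNA 155 bp upstream of the only TSS, with a pooled signal of 731 and rank 393. The relative signal was 3.05, 2.74 and 3.19 in the 3 replicates (mean 2.99 ± 0.230 SD, n = 3), higher in each replicate than at bcd, cnc or nos. Within the span of 41709 bp lay 5 more summits, at 2721, 3574, 12080, 20415 and 28893 bp downstream of the TSS, with signals of 379, 163, 434, 460 and 165. The summit at 12080 bp lay in an exon of the noncoding gene lncRNA:CR45940, and the other 4 lay in introns of nkd. The relative signal of the summit at 20415 bp was 1.52, 2.05 and 2.13 (mean 1.90 ± 0.328 SD, n = 3). It was 1.64, 1.75 and 1.82 at 12080 bp (mean 1.74 ± 0.0925 SD, n = 3) and 1.84, 1.40 and 1.55 at 2721 bp (mean 1.60 ± 0.224 SD, n = 3). These 3 were above 1 in every replicate, whereas the summits at 3574 and 28893 bp were below 1 in every replicate. A further summit, with a signal of 292, lay 7390 bp past the end of nkd and nearest to CG18135.

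The Hedgehog receptor gene ptc had 10 summits within 10 kb, the most of the 36 genes. Of these, 1 lay 5250 bp upstream in intergenic DNA, with a signal of 417 and a relative signal of 2.10, 1.72 and 1.57 (mean 1.80 ± 0.274 SD, n = 3). Introns of ptc held 4, at 2784, 4743, 9446 and 10058 bp from the TSS, with signals of 324, 134, 155 and 136. The highest of the 4 had a relative signal of 0.947, 1.52 and 1.31 (mean 1.26 ± 0.291 SD, n = 3), on both sides of 1, and its nearest TSS was that of lncRNA:CR44281. The other 5 lay beyond the end of ptc, in introns of Acsl, an acyl-CoA synthetase gene, with signals of 141 to 517. Only the upstream summit was nearest to the ptc TSS.

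Among genes of the signals themselves, the summits were low. The Wnt gene wg had summits 8230 bp upstream and 6506 bp downstream of its TSS, the second of them in an intron, with signals of 171 and 179. The intronic one had a relative signal of 0.757, 0.883 and 0.591 (mean 0.744 ± 0.146 SD, n = 3). The gene hh, which encodes the Hedgehog ligand, had 1 summit 7264 bp upstream with a signal of 151. All 3 signals were below the IDR median. The homeodomain genes en and inv, a neighbouring pair of similar sequence, differed in position relative to 1 summit: it lay in an intron of inv, 24837 bp from the nearest inv TSS, with a signal of 171, and 23461 bp from en. Its relative signal was 0.634, 0.715 and 0.881 (mean 0.743 ± 0.126 SD, n = 3), below 1 in each replicate.

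None of the summits within 10 kb of smo, dsh and pan was nearest to the gene itself. The summits within 10 kb of smo, the Hedgehog signal transducer, lay 150 bp upstream of CG17075 (signal 751) and 156 and 96 bp upstream of annotated starts of CG3625 (209 and 286). Those near dsh, which relays the Wingless signal, were nearest to CG1737 (734) and CG1738 (133). The summit near pan, the TCF gene that carries the Wingless signal to DNA, lay 65 bp upstream of RpS3A, a ribosomal protein gene (195). The genes ci (the Gli-type effector of Hedgehog), gsb (a Pax gene), arm (beta-catenin) and fu (a Hedgehog pathway kinase) had no summit within 10 kb, the nearest lying at 10231, 20959, 11646 and 10611 bp.

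**Figure D2:**
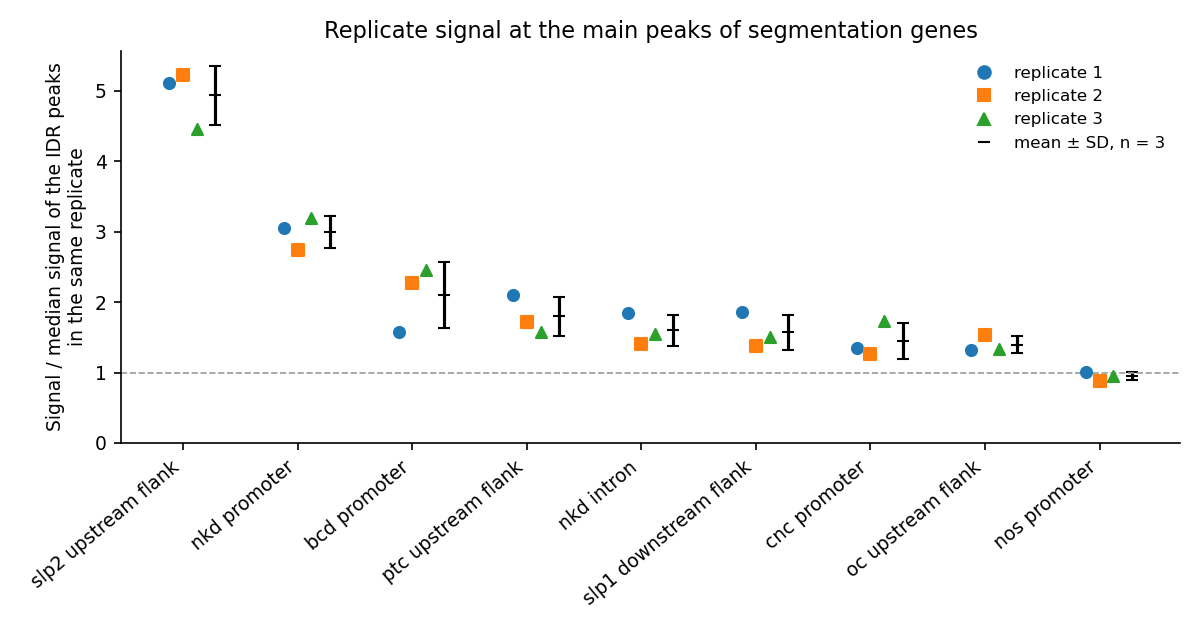
Relative signal (y axis; signal divided by the median of the IDR peaks in the same replicate list, dashed line at 1) in the 3 replicates, with mean and SD, for the 4 promoter summits and for every other summit with a pooled signal above 300 whose nearest TSS is that of a segmentation gene. The peak upstream of slp2 stands at 4.46 to 5.23, above the nkd promoter at 2.74 to 3.19, and the nos promoter stands at 0.886 to 1.00.

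Counted by class, promoter summits were found in 2 of 3 maternal, 1 of 11 gap, 0 of 9 pair-rule and 1 of 13 segment polarity genes. Summits inside the gene span were found in 1 of 3 maternal, 2 of 11 gap, 0 of 9 pair-rule and 4 of 13 segment polarity genes, or 7 of 36 in all (19.4%, exact binomial 95% interval 8.19 to 36.02%), against 13% of all protein-coding genes. Segmentation genes are longer than most, with a median span of 3915 bp against 2166 bp for all protein-coding genes, and 6 of the 7 spans with a summit were over 10 kb long. Per length, the segmentation genes' spans held 40.9 summits per Mb and the spans of all protein-coding genes 35.4 per Mb. Most of the summits in the segmentation genes' spans lay in nkd and ptc. Summits within 10 kb of the span were found in 3 of 3 maternal, 5 of 11 gap, 5 of 9 pair-rule and 8 of 13 segment polarity genes, or 21 of 36 in all (58.3%, exact binomial 95% interval 40.8 to 74.5%), against 67.8% of all protein-coding genes. The classes hold few genes and their intervals overlap widely; no difference between them was tested.

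**Figure D3:**
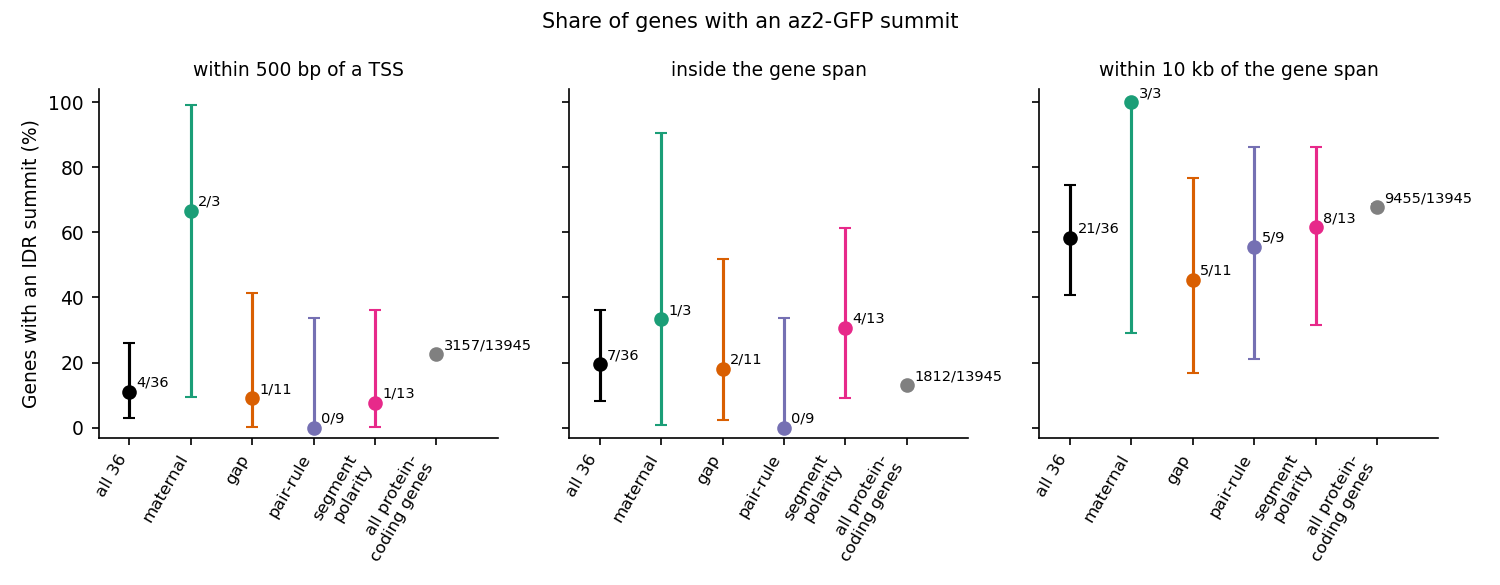
Percent of genes with an IDR summit within 500 bp of a TSS, inside the gene span and within 10 kb of it (y axis), for all 36 segmentation genes, for the 4 classes and for all 13945 protein-coding genes; bars are 95% exact binomial intervals (counting error only), and labels give counts. Pair-rule genes stand at 0 of 9 in the first 2 panels and at 5 of 9 in the last, and every class interval is wide.

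The counts differed with gene length. All 10 segmentation genes over 10 kb long had a summit within 10 kb, against 78.7% of all protein-coding genes over that length. Of these 10 genes, 6 had a summit inside the gene, against 47.7% of all protein-coding genes over 10 kb. Of the 26 genes up to 10 kb long, 11 (42.3%) had a summit within 10 kb, against 66.0% of all protein-coding genes up to that length. For the 15 genes with none within 10 kb, the nearest summit lay at 10231 bp (ci), at a median of 15550 bp and at most 59243 bp (Kr). The distance from the span to the nearest summit had a median of 6053.5 bp for the 36 genes and 4180 bp for all protein-coding genes, and 5 of 36 segmentation genes and 18.0% of all protein-coding genes were more than 20 kb from one.

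**Figure D4:**
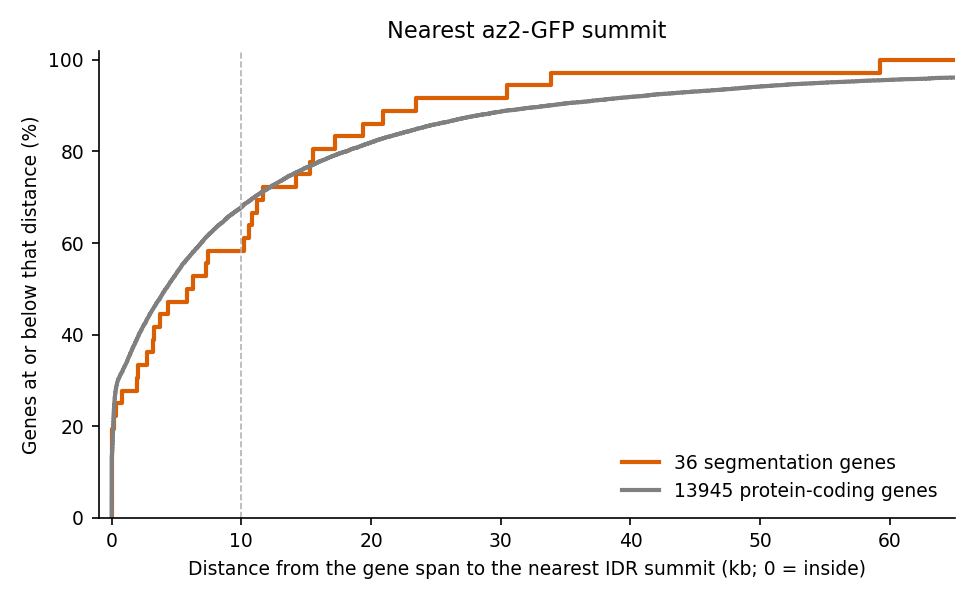
Cumulative percent of genes (y axis) by the distance in kb from the gene span to the nearest IDR summit (x axis, 0 for a summit inside the gene), for the 36 segmentation genes and all 13945 protein-coding genes; the dashed line marks 10 kb. The curve of the segmentation genes lies below that of all genes around 10 kb, at 58.3% against 67.8%, and above it at 20 kb.

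In all, 63 distinct summits lay within 10 kb of a segmentation gene, or 59.2 per Mb of these windows, against 47.0 per Mb in the same windows around all protein-coding genes and 43.2 per Mb over the arms. The window of ptc held 10 of the 63, and those of nos and nkd held 7 each. Several of the 63 are close neighbours: joining summits within 250 bp of each other left 57, or 53.6 per Mb, against 40.8 per Mb over the arms, a step chosen after the data were seen. Their median signal was 224, against 233 for all IDR summits. All 63 lay in a peak of each whole replicate list, and 45 (71.4%) lay in a peak of all 3 lists when every list was limited to its 5786 highest peaks, against 72.6% of all IDR summits. Introns held 32, intergenic DNA 28, exons of noncoding RNAs 2 and a 5' untranslated region 1, and none lay in a coding exon. The matching shares over all IDR summits are not given here.

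Of the 63 summits, 24 were nearest to a TSS of a segmentation gene and 39 nearest to a TSS of another gene. Of the segmentation genes' own 24 summits, 3 lay within 500 bp of the TSS. Of the 39 assigned to other genes, 17 lay within 500 bp of that gene's TSS. The same share over all IDR summits is not given here, so these counts have no baseline. Among the 10 highest of the 63, with signals of 517 to 1183, 3 were nearest to a segmentation gene, namely those at slp2, nkd and bcd. By gene, 15 of 36 segmentation genes (41.7%, exact binomial 95% interval 25.5 to 59.2%) had within 10 kb at least 1 summit nearest to their own TSS, against 23.3% of all protein-coding genes. Those 15 were 1 maternal, 4 gap, 5 pair-rule and 5 segment polarity genes. The distance to neighbouring genes, which this count depends on, was not matched.

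Below the IDR threshold, weaker peaks stood at further promoters. The longer list of 27145 peaks of the pooled replicates, made before the IDR threshold and holding background as well as peaks, had a peak within 500 bp of a TSS in 20 of 36 segmentation genes (55.6%), against 49.4% of all protein-coding genes. For the 16 genes without an IDR promoter summit these signals ran from 38.3 at run to 122 at smo, with a median of 59.3, all below the lowest IDR peak of 133. Of these 16 genes, 8 had a promoter peak in all 3 replicate lists, 7 in 2 of them and 1, run, in replicate 1 alone. For all 7 the list without one was that of replicate 2. That list is shorter, with 22372 peaks and a lowest signal of 20.5. Those of replicates 1 and 3 hold 30000 each, with lowest signals of 8.77 and 16.5. Whether list length accounts for the missing peaks was not tested, and the same counts over all genes are not given here. By pooled signal, the 6 highest of the 16 were segment polarity genes: smo (122), ptc (110), wg (97.3), fu (87.4), ci (82.4) and dsh (76.7). Of these 6, wg had no promoter peak in the list of replicate 2, and the others had one in each replicate list. Most of the 16 genes belong to that class. Its remaining members among the 16, pan (56.2), arm (46.9) and inv (46.7), stood below cad (67.9), h (61.4) and oc (57.1). No peak of the pooled list lay at the promoters of the other 16 genes, among them all 5 trunk gap genes, both terminal gap genes, eve, ftz and en. Single replicate lists did hold peaks at some of these 16 promoters. The genes kni, eve and odd had one in 2 lists, those of replicates 1 and 3. The genes gt, slp2, en and hh had one in 1 list, and the other 9 in none.

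**Figure D5:**
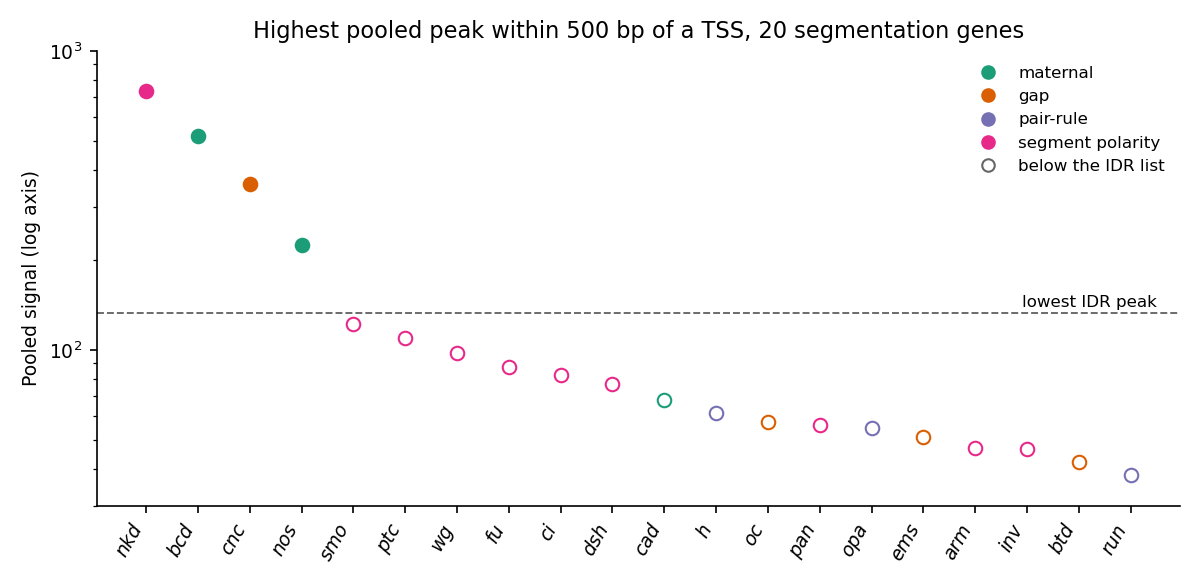
Signal of the highest peak of the relaxed pooled list within 500 bp of a TSS (y axis, log scale) for the 20 segmentation genes that have one, ordered by signal and coloured by class; open circles lie below the IDR list, whose lowest signal is drawn as a dashed line at 133. Filled circles for nkd, bcd, cnc and nos stand above the line, and open circles for 16 genes run from 122 down to 38.3.

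The searched words lay near 0 to 22 of the 63 summits, depending on the word. GAGAG lay within 100 bp of 14 of 63 (22.2%), against 20.9% of all IDR summits and 22.2% of the 201 bp that end at the TSS of each protein-coding gene. CGATA lay near 22 of 63 (34.9%), against 27.1% and 38.4%. GGATTA, the Bicoid word, lay near 7 of 63 (11.1%), against 6.26% and 5.99%. CAGGTAG, the word of the early embryonic activator Zelda, lay near none of the 63, against 0.778% and 1.15%. TATCGATA lay near 2 (3.17%), against 3.23% and 7.39%, and GGTCACAC near 2 (3.17%), against 1.97% and 3.74%. All of these are descriptions without a test.

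Other genes of the same pathways were counted by whether an IDR summit lay within 500 bp of a TSS, called a promoter summit here; 22.6% of all protein-coding genes had one. Of 20 further genes of the Wingless pathway 9 (45%) had a promoter summit, the highest at the casein kinase gene gish (2036), at sgg, the GSK3 kinase that marks Armadillo for destruction (1062), at the corepressor gene gro (1051), at Apc2 of the destruction complex (350) and at nej (249). Of 18 further genes of the Hedgehog pathway 7 (38.9%) had a promoter summit, against the same 22.6%, the highest at rdx, an adaptor for the breakdown of Ci (686), at sotv (441) and ttv (281), which build heparan sulphate chains, at the glypican gene dlp (408) and at the casein kinase gene CkIalpha (217). CkIalpha and slmb stand in both lists. Not every one of these summits belongs clearly to the counted gene. The slmb summit was nearer to the TSS of CG5793, and that of the Wingless gene Apc to the TSS of spg. At Apc the relative signal was 0.185, 0.842 and 0.991 in the 3 replicates. The summit at lgs, also of the Wingless list, lay in a peak of only 1 list limited to 5786 peaks. The nej summit is also 1 of the 5 counted near btd. The relative signal at sgg was 3.56, 5.32 and 3.93 (mean 4.27 ± 0.929 SD, n = 3), at gro 3.80, 4.89 and 4.06 (mean 4.25 ± 0.570 SD, n = 3) and at rdx 2.20, 3.31 and 2.58 (mean 2.70 ± 0.567 SD, n = 3).

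Of 12 further genes listed with the maternal genes of the body axes, 3 (25%) had a promoter summit. These were Trl, the gene of GAGA factor (585), pum, the partner of Nanos (224), and stau, which anchors bcd messenger RNA (151). The stau summit lay in no peak of the replicate 2 list, and its relative signal was 0.679 and 0.714 in replicates 1 and 3. Of 14 further genes listed with the gap and pair-rule tiers, 2 (14.3%) had a promoter summit, grh (165) and the teneurin gene Ten-m (145). At Ten-m the relative signal was 0.779, 0.310 and 0.686 in the 3 replicates. Of 9 further genes of segment boundaries none had a promoter summit. Taken once each, 19 of the 71 genes (26.8%) had a promoter summit, against the 22.6% of all protein-coding genes. The lists were chosen with earlier results of these data known, and no difference between them was tested.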

How the data were processed

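ChIP-seq peak lists of 3 biological replicates, which form 1 group, were used. Chromatin was sonicated to 200 to 800 bp, per the labels. Per the deposited description files, the dm6 lists hold the peaks of each replicate and of the pooled replicates, derived from alignments together with a further file that was not analysed here, and the IDR peaks derived from them. Which caller made them, in which version, and at what IDR threshold is not given in the sources used here. Column 7 of each deposited list was taken as the caller's score, called signal here. Its scale is not given in the sources used here. Column 10 is the summit's offset from the peak start. The q-values of column 9 were not used, and the dm3 lists were not used because the annotation is of dm6.

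Genes and TSSs came from the Ensembl annotation of dm6, on the 6 main arms. Of the 36 names 34 matched directly; nos and h were matched as nanos and hry through RefSeq synonyms. Transposable elements were left out when the nearest TSS was sought. Coordinates count from 1. Python 3.11.15, pandas 2.3.3, numpy 2.4.6 and scipy 1.17.1 were used, and the counting was checked on simulated summits. The intervals given with some shares are exact binomial (Clopper-Pearson) 95% intervals, which cover counting error only. The shares of other pathway genes, of length classes and of words are given without intervals. No test was run, since there was no contrast between samples and the members and lists were chosen with earlier results of these data known. Words for Motif 7, CTCF and ZIPIC were planned and not searched. Every member is named. Of the other pathway genes, all with a promoter summit are named where a list had 5 or fewer, otherwise the 5 of highest signal. Apc, slmb and lgs are named besides, for the limits of their summits.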

Additional observations from a re-analysis of the deposited data

How the results depend on the processing

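Of 68 alternative counts, 51 were within 1.5 times of the reported one. The 17 others were these. Shares in parentheses are those of all protein-coding genes under the same setting. With only the 2893 IDR peaks of higher signal, 3 gene spans (8.09%) and the 10 kb windows of 13 genes (50.1%) held a summit, among them 3 gap, 3 pair-rule and 4 segment polarity genes. With the relaxed pooled list, 20 promoters (49.4%), 20 spans (35.9%) and 35 windows of 10 kb (93.5%) did, among the windows those of 10 gap, 9 pair-rule and 13 segment polarity genes. With a TSS window of 250 bp, 2 promoters did (17.6%). With a flank of 5 kb, 3 pair-rule genes counted (53.4%), and with 20 kb, 9 gap and 8 pair-rule genes (82%). With only summits nearest to the gene's own TSS, 1 maternal and 5 segment polarity genes counted (23.3%). Peaks were not called again without a replicate. Instead, IDR summits were kept that lay in a peak of both other replicate lists, each limited to its 5786 highest peaks. With replicate 1, 2 or 3 left out in this way, 4 promoters counted each time, 6 to 7 spans and 20 to 21 windows of 10 kb. The hh summit lay in no peak of the limited list of replicate 1, and so dropped out when replicate 2 or 3 was left out. The intronic cad summit lay in none of replicate 2, and so dropped out when replicate 1 or 3 was left out. No paired analysis was possible because all replicates form 1 group. Peak lists without reads limit what an absent peak can show: a gene without a summit is one where no peak passed the IDR threshold.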

Other observations

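Of all 5786 IDR summits, 1 had 2 or more copies of the Motif 1 core GGTCACAC within 100 bp, and it was the summit between slp1 and slp2; 114 summits (1.97%) had at least 1 copy. This was looked up after the slp sequence had been seen, and nothing was tested.

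Among the 63 summits near segmentation genes were 6 pairs of summits 199 to 224 bp apart, at Acsl (2 pairs), Ppcs, nej, lncRNA:CR42657 and between bcd and Ama. In 5 of these pairs, 2 or 3 replicate lists held a single peak over both summits, so the replicate values of the paired summits are not separate measurements.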
